A study of Mus musculus with 8 samples.

Results

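The mRNAs of 10 proteins that, like tristetraprolin (TTP), act on AU-rich elements or on neighbouring decay signals in 3′ untranslated regions (3′ UTRs) were followed in spleen: Elavl1, Khsrp, Hnrnpd, Hnrpdl, Tia1, Tial1, Rc3h1, Rc3h2, Zc3h12a and Hnrnpa2b1. The members were taken by gene symbol and came to 16 transcripts of 10 genes among 23517 transcripts of 17738 genes. Hnrnpd had 4 transcripts, Tia1 had 3, Hnrnpa2b1 had 2 and each other gene had 1. The spleens came from male C57BL/6 mice aged 8 to 12 weeks, kept under normal conditions and untreated: 4 wild-type mice and 4 mice with the TTPΔARE allele, in which the Zfp36 mRNA, which encodes TTP, lacks its own AU-rich element. The allele is a germ-line knock-in and so present in every cell type, and RNA was taken from the whole organ, so fewer cells of a type and less RNA per cell cannot be told apart in any value here.

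AU-rich elements are stretches built around the pentamer ATTTA, written here as DNA, that set how long an mRNA lasts and how well it is translated. Proteins that bind them compete: TTP, KSRP (Khsrp) and most forms of AUF1 (Hnrnpd) bring decay enzymes to the mRNA, HuR (Elavl1) protects it, and TIA-1 and TIAR (Tia1, Tial1) hold back its translation. The Roquin proteins (Rc3h1, Rc3h2) and the endonuclease Regnase-1 (Zc3h12a) recognise small stem-loops instead, and silence many of the inflammatory mRNAs that TTP also silences.

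Several of these genes carry such elements in their own 3′ UTRs, which are shown here because they are the sites through which the proteins of this group can act on one another's mRNAs. The 3′ UTRs are those of the GENCODE M21 transcripts matched to the table (GRCm38), the longest for each gene, searched on the sense strand only. The nonamer TTATTTATT, the preferred site of TTP, was present in 3 of the 10 genes, against 7.22% of 11815 other tested genes and 9.1% of the 8264 others with a 3′ UTR of 523 to 7181 bases, the range of the members. Lengths were not matched within this range, here or for the other motifs. The 3 genes, Elavl1, Rc3h1 and Rc3h2, had 3′ UTRs of 4218, 7181 and 2095 bases. Elavl1 held 8 copies, most of them overlapping, in 55 bases near the end of its 4218-base 3′ UTR (chr8:4285752-4285806, minus strand), and only 3 of the 11815 other genes held as many. The Roquin genes held 1 copy each. Capitals mark 1 nonamer in each site.
Elavl1, chr8:4285775-4285804, minus strand: atttatttatTTATTTATTtttatttattt
Rc3h1, chr1:160970043-160970072, plus strand: actttactcaTTATTTATTgagatgaggag
Rc3h2, chr2:37373286-37373315, minus strand: caaagacattTTATTTATTttactctgtaa

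The shorter heptamer TATTTAT was found in 5 of the 10 genes (Elavl1, Rc3h1, Rc3h2, Tia1 and Tial1), against 28.6% of the other genes and 36.5% of those in the same range of length; every nonamer contains a heptamer. The pentamer was in the longest annotated 3′ UTR of all 10 genes, in 68.0% of the others and in 82.4% of those in the same range of length. For Hnrnpd this rests on the transcript for 355 residues alone, with a 3′ UTR of 5429 bases and 10 pentamers; the other transcripts of Hnrnpd, with 3′ UTRs of 362 to 766 bases, held none of the motifs searched. Zc3h12a, with a 3′ UTR of 856 bases, had 3 pentamers and neither longer motif. For the core of the Roquin stem-loop the pattern TTCNNNGAA was searched, with any 3 bases allowed as the loop NNN, so a match need not be a Roquin site. It was found in 4 of the 10 genes, in 34.4% of the others and in 44.6% of those in the same range of length. Hnrnpd was among the 4 by that 1 transcript, with loops CTA and CAG and stems of only 3 pairs. In both Roquin genes 1 copy lay in an identical hairpin with a stem of 6 base pairs and the loop TGT. A stem of at least 6 pairs around this core, a length chosen after the sites were seen, occurred in 2 of the 10 members and in 1.83% of the other genes. Capitals mark the stem and lower case the loop.
Rc3h1, chr1:160971660-160971674, plus strand: AACTTCtgtGAAGTT
Rc3h2, chr2:37373809-37373823, minus strand: AACTTCtgtGAAGTT
A match is a stretch of letters in the annotated 3′ UTR and not a measured binding site.

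Levels are given in FPKM, fragments scaled to transcript length and to the depth of the sample, which can be compared between genes. Depth, estimated from the spacing of the smallest values, was 28300000 to 32200000 fragments a sample. Zfp36 itself was higher in TTPΔARE spleen, 52.9 ± 4.90 against 40.3 ± 3.91 FPKM (SD, n = 4 each, limma adjusted p = 0.0323). Of 16608 transcripts tested, 333 rose and 331 fell. Cell type marker mRNAs also differed, though cells were not counted. Each gene of the marker lists, and of the wider lists below, was counted by its transcript of highest mean FPKM alone. Other transcripts of these genes were left out, whereas the shares given beside them are over all tested transcripts. All 17 erythroid markers tested had a positive value and an unadjusted limma p under 0.05, and 5 rose. For all tested transcripts the share at an unadjusted p under 0.05 was 21.1%. The summed level of the erythroid markers was 4139.1 to 7709 FPKM in wild-type and 9793 to 15517 FPKM in TTPΔARE spleens. Of 10 B cell markers 2 fell and 7 had an unadjusted p under 0.05 (6 lower, 1 higher), with sums of 997.02 to 1067.1 and 869.7 to 939.1 FPKM. Of 9 neutrophil markers 2 rose and no other had an unadjusted p under 0.05, with sums of 99.2 to 288.3 and 146.1 to 256.4 FPKM. None of the 10 T cell markers passed (5 at an unadjusted p under 0.05, 4 lower and 1 higher). Of 8 red pulp macrophage markers 1 rose (4 at an unadjusted p under 0.05, all higher). No erythroid, B cell, T cell, neutrophil or macrophage marker in the table was at 0 in every sample. The 5 pancreas markers in the table were at most 0.236 FPKM.

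None of the 16 member transcripts passed the test between the genotypes, where 4.0% of all tested transcripts did, 2.01% higher and 1.99% lower (limma on log2(FPKM + 0.5), Benjamini-Hochberg adjusted p under 0.05 over all 16608). All 16 passed the filter of a mean of at least 0.5 FPKM. At an unadjusted p under 0.05 there were 4, of Zc3h12a, Hnrpdl, Tia1 and Hnrnpd, all with lower values in TTPΔARE spleen, beside 21.1% of all transcripts in either direction and 9.47% with lower values. The median log2 change was -0.05 over the members and 0.0031 over all transcripts, with 12 members below 0 and 4 above. The 95% intervals were narrow: the median half-width was 0.156 on the log2 scale for the members and 0.178 for all transcripts. The lowest bound of any member was -0.46 and the highest was 0.24, so the intervals leave out a 2-fold change for each of them.

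**Figure D1:**
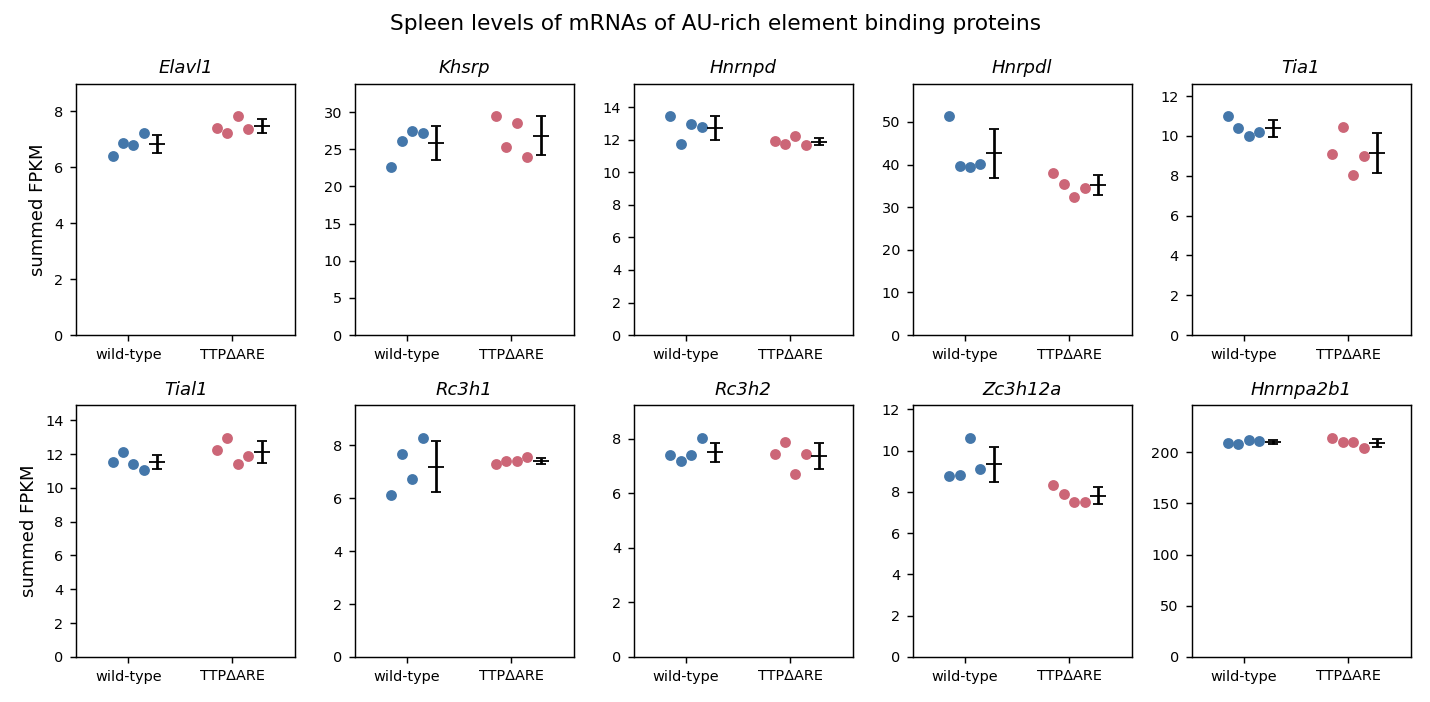
FPKM summed over the transcripts of each gene in each of the 8 spleens, with the mean and SD of the 4 animals of each genotype beside the points. Each vertical axis starts at 0 and has its own scale; the groups do not overlap for Elavl1, Hnrpdl and Zc3h12a.

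**Figure D2:**
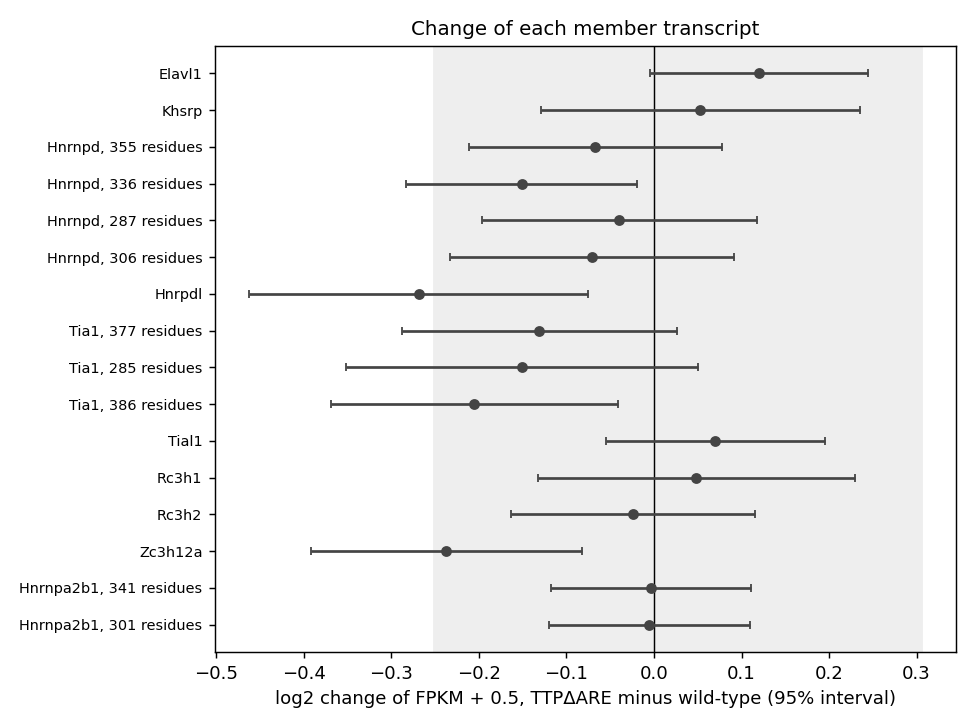
Log2 change of FPKM + 0.5 of each of the 16 transcripts, TTPΔARE minus wild-type, with its 95% interval from limma. Genes with several transcripts are labelled by the number of residues each encodes, and the grey band runs from the 5th to the 95th percentile of all 16608 transcripts, -0.25 to 0.31; all but Hnrpdl have their point inside it.

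The members spanned a wide range of levels. In wild-type spleen Hnrnpa2b1 was highest, with 209.8 FPKM over its transcripts, followed by Hnrpdl at 42.6, Khsrp at 25.8, Hnrnpd at 12.7, Tial1 at 11.5, Tia1 at 10.4, Zc3h12a at 9.33, Rc3h2 at 7.497, Rc3h1 at 7.20 and Elavl1 at 6.83 FPKM. The wild-type ranges of neighbours in this order overlapped for Hnrnpd and Tial1, for Tia1 and Zc3h12a, for Rc3h2 and Rc3h1 and for Rc3h1 and Elavl1, and did not overlap for the other neighbours. Summing over transcripts takes the authors' division of fragments between them as given, and the places of Hnrnpd and Tia1 depend on it. Their single transcripts had wild-type means of 2.79 to 3.46 and 3.11 to 3.83 FPKM, below Elavl1. The single transcripts of Hnrnpa2b1, at 97.5 and 112.2 FPKM, were each above Hnrpdl.

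Among the proteins that protect AU-rich mRNAs, the only member was HuR, a ubiquitous RNA-binding protein whose gene Elavl1 lies on chromosome 8 at 4284781 to 4325140 (GRCm38, minus strand). Elavl1 stood at 6.41, 6.88, 6.81 and 7.21 FPKM in wild-type replicates 1 to 4 and at 7.42, 7.24, 7.82 and 7.36 FPKM in TTPΔARE replicates 1 to 4. Every TTPΔARE spleen was above every wild-type spleen, but by a narrow margin, and groups that do not overlap with the TTPΔARE values higher were found for 6.53% of all tested transcripts. The means were 6.83 ± 0.329 and 7.46 ± 0.251 FPKM (SD, n = 4 each), a log2 change of 0.12 (SE 0.0567, 95% interval -0.0049 to 0.24) that did not pass (limma adjusted p = 0.254). At the estimated depth and the GENCODE length of 5743 bases these values stand for about 1042 to 1423 fragments a sample. With the mean of the erythroid markers as a covariate the log2 change was 0.06 (SE 0.0969, adjusted p = 0.937). The sums of these markers did not overlap between the genotypes, so the covariate is hard to separate from genotype and the SE grows. A change that does not pass with it, here and below, is therefore not shown to depend on those markers. Exons of Elavl1 share 204 bases with Ccl25 on the opposite strand. Whether the counting used strand is not given in the sources used here, and Ccl25 stood at 0.579 and 0.426 FPKM in wild-type and TTPΔARE spleen.

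The other known stabilizers on the list were mostly scarce in spleen. Of 8 listed genes 6 were in the table and only Arid5a and Ybx1 reached a mean of 0.5 FPKM; by limma 0 of these 2 passed and 0 had an unadjusted p under 0.05. Arid5a, which protects Il6 mRNA from Regnase-1, stood at 1.48 ± 0.134 and 1.68 ± 0.0169 FPKM (log2 0.14, adjusted p = 0.304), and the cold-shock protein gene Ybx1 at 84.8 ± 6.26 and 82.9 ± 4.28 FPKM (log2 -0.03). Elavl3, Igf2bp1, Igf2bp2 and Igf2bp3 were at most 0.727 FPKM in any sample.

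Among the decay-promoting proteins that bind AU-rich elements, KSRP recruits the deadenylase and the exosome through its KH domains. Its gene Khsrp (chromosome 17, 57021049 to 57031507) stood at 22.5, 26.1, 27.4 and 27.2 FPKM in wild-type and at 29.4, 25.3, 28.6 and 24.0 FPKM in TTPΔARE replicates 1 to 4. The groups overlapped over most of their range, with a log2 change of 0.05 (SE 0.0828, 95% interval -0.13 to 0.23, adjusted p = 0.772).

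AUF1, the product of Hnrnpd (chromosome 5, 99955935 to 99979130), is made in 4 forms by splicing of a pair of exons, and all 4 were in the table. The transcript for the form of 336 residues stood at 3.60, 3.28, 3.21 and 3.37 FPKM in wild-type and at 3.07, 2.95, 2.98 and 2.92 FPKM in TTPΔARE replicates 1 to 4. Its groups did not overlap, as for 5.99% of all transcripts with lower TTPΔARE values, and its log2 change was -0.15 (SE 0.06, 95% interval -0.28 to -0.019, adjusted p = 0.180). The transcripts for 355, 306 and 287 residues had log2 changes of -0.07, -0.07 and -0.04 with overlapping groups. Summed over the 4, Hnrnpd was at 12.7 ± 0.720 and 11.9 ± 0.241 FPKM (SD, n = 4 each; log2 -0.09, limma adjusted p = 0.365 over all genes). Exons of Hnrnpd share 385 bases with the antisense gene Gm17092.

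Hnrpdl, now named Hnrnpdl, encodes a close relative of AUF1 with the same pair of RNA-recognition motifs and lies beside Hnrnpd (chromosome 5, 100033577 to 100039936). It had the most negative change of the members. Its values were 51.3, 39.5, 39.5 and 40.2 FPKM in wild-type and 38.1, 35.4, 32.4 and 34.6 FPKM in TTPΔARE replicates 1 to 4, with wild-type replicate 1 far above the rest and every TTPΔARE value below every wild-type value. The log2 change was -0.27 (SE 0.0883, 95% interval -0.46 to -0.075) and did not pass (adjusted p = 0.116). Without wild-type replicate 1 it was -0.18 (adjusted p = 0.143), and with the erythroid covariate -0.09 (adjusted p = 0.925).

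TIA-1 and TIAR are paralogs that bind U-rich sequences, silence translation and gather in stress granules. The Tia1 transcript for 386 residues (gene on chromosome 6, 86404203 to 86433405) stood at 4.07, 3.72, 3.64 and 3.90 FPKM in wild-type and at 3.24, 3.63, 2.85 and 3.34 FPKM in TTPΔARE replicates 1 to 4. The TTPΔARE values were all lower, though replicate 2 reached almost to the wild-type range, and the log2 change was -0.21 (SE 0.0744, 95% interval -0.37 to -0.042, adjusted p = 0.144). The transcripts for 377 and 285 residues had log2 changes of -0.13 and -0.15 and overlapping groups. Summed over the 3, Tia1 was at 10.4 ± 0.431 and 9.14 ± 1.005 FPKM (SD, n = 4 each; log2 -0.18, limma adjusted p = 0.198 over all genes). With the erythroid covariate the log2 changes were -0.07, 0.01 and 0.07 for 386, 377 and 285 residues. Exons of Tia1 share 352 bases with Gm44790 on the same strand.

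Tial1, the gene of TIAR, had 11.5, 12.1, 11.4 and 11.1 FPKM in wild-type and 12.3, 12.9, 11.4 and 11.9 FPKM in TTPΔARE replicates 1 to 4 (chromosome 7, 128439772 to 128461726). The groups overlapped and the log2 change was 0.07 (SE 0.057, 95% interval -0.055 to 0.20, adjusted p = 0.533). The difference between the changes of the 2 paralogs was not tested.

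Regnase-1, which cleaves stem-loops in Il6, Il12b and its own mRNA in mouse macrophages, had the smallest p of the members. Zc3h12a (chromosome 4, 125118414 to 125127881) stood at 8.76, 8.83, 10.6 and 9.13 FPKM in wild-type and at 8.36, 7.90, 7.52 and 7.52 FPKM in TTPΔARE replicates 1 to 4. Every TTPΔARE spleen was below every wild-type spleen. The means were 9.33 ± 0.866 and 7.82 ± 0.398 FPKM (SD, n = 4 each), a log2 change of -0.24 (SE 0.0703, 95% interval -0.39 to -0.083) that did not pass over all transcripts (limma adjusted p = 0.0858). In the 18 alternatives its adjusted p ran from 0.0647 to 0.469 and its log2 change from -0.34 to -0.18. The erythroid covariate gave the -0.34, with a wider SE of 0.114 and an adjusted p of 0.469. B cell and erythroid marker sums did not overlap between the genotypes either, and their part in the Zc3h12a values was not tested beyond that covariate.

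Roquin-1 and Roquin-2 bind stem-loops through their ROQ domain and recruit the deadenylase. The sanroque mutation of Rc3h1 is known for autoimmunity in mice. Rc3h1 (chromosome 1, 160906411 to 160974976) stood at 6.13, 7.67, 6.73 and 8.27 FPKM in wild-type and at 7.30, 7.40, 7.40 and 7.58 FPKM in TTPΔARE replicates 1 to 4. The TTPΔARE values lay inside the wild-type range, with a log2 change of 0.05 (SE 0.0824, 95% interval -0.13 to 0.23, adjusted p = 0.791). Rc3h2 (chromosome 2, 37368861 to 37424370) stood at 7.39, 7.19, 7.39 and 8.02 FPKM and at 7.45, 7.88, 6.71 and 7.45 FPKM in the same order. Its groups also overlapped, with a log2 change of -0.02 (SE 0.0634, 95% interval -0.16 to 0.12, adjusted p = 0.876).

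Hnrnpa2b1, which encodes the abundant nuclear proteins hnRNP A2 and B1 that package and sort RNA, was the steadiest member (chromosome 6, 51460434 to 51470048). Summed over its 2 transcripts it spanned 207.9 to 212.0 FPKM in wild-type and 203.7 to 213.6 FPKM in TTPΔARE spleens, a highest-to-lowest ratio of 1.05 over the 8 samples, against ratios of up to 1.58, that of Hnrpdl, for the other members. The log2 changes of the transcripts for 341 and 301 residues were -0.0032 and -0.0052, with 95% intervals of -0.12 to 0.11 for both.

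In all, 5 of the 16 transcripts had groups without overlap, 1 higher (Elavl1) and 4 lower (Zc3h12a, Hnrpdl, Tia1 and Hnrnpd) in TTPΔARE spleen. Such groups were found for 12.5% of all tested transcripts.

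Stabilizers were then set against destabilizers within each sample, as the log2 level of Elavl1 minus the mean log2 level of Khsrp, Hnrnpd, Rc3h1, Rc3h2 and Zc3h12a. This difference was -0.66, -0.63, -0.70 and -0.66 in wild-type and -0.54, -0.53, -0.42 and -0.47 in TTPΔARE replicates 1 to 4. Elavl1 was thus below the destabilizers' mean in every spleen, by less in the TTPΔARE spleens, and the groups did not overlap. The means were -0.66 ± 0.0317 and -0.49 ± 0.0584 (SD, n = 4 each), which differ by 0.17. Elavl1 with 0.12 and Zc3h12a with -0.24 had the largest log2 changes among the 6 genes in this difference, while Khsrp, Hnrnpd, Rc3h1 and Rc3h2 had log2 changes of 0.05, -0.09, 0.05 and -0.02. The value was 0.15 to 0.19 with 1 spleen left out. Since the members were chosen with earlier results of these spleens known and the stabilizers are a single gene, no test was made of it. Elavl1 and Zc3h12a, both part of the difference, had groups without overlap on their own as well. How often such differences between other genes leave the groups apart was not computed.

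Roquin and Regnase were set against the other 7 members in the same way. The mean log2 level of Rc3h1, Rc3h2 and Zc3h12a minus that of the others was -1.55, -1.41, -1.39 and -1.34 in wild-type and -1.46, -1.44, -1.48 and -1.41 in TTPΔARE replicates 1 to 4. The groups overlapped, with means of -1.42 ± 0.0895 and -1.45 ± 0.0324 (SD, n = 4 each), which differ by -0.027. Within the first class the log2 changes were -0.24 for Zc3h12a, 0.05 for Rc3h1 and -0.02 for Rc3h2, and the difference between them was not tested. Of the 3 Roquin and Regnase transcripts 1 had an unadjusted p under 0.05, as had 3 of the 13 others and 21.1% of all transcripts. By limma 0 of either class passed, beside 4.0% of all transcripts.

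**Figure D3:**
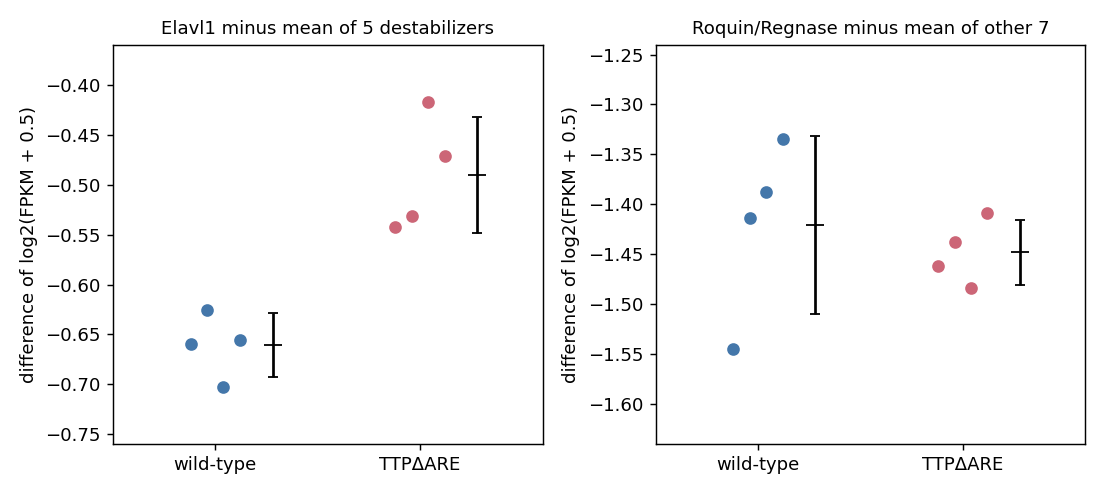
Differences of log2(FPKM + 0.5) between classes of members within each spleen, with mean and SD of 4 animals: Elavl1 minus the mean of 5 destabilizers (left) and Rc3h1, Rc3h2 and Zc3h12a minus the mean of the other 7 (right). Both axes span the same distance; the groups are apart on the left (means -0.66 and -0.49) and overlap on the right (-1.42 and -1.45).

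The balance between transcripts of a member was compared through the ratio of each transcript to the other transcripts of its gene. The forms of Hnrnpd for 355, 336, 306 and 287 residues made up 27.2, 26.5, 24.4 and 21.9% of its summed FPKM in wild-type and 27.5, 25.1, 24.7 and 22.7% in TTPΔARE spleen. For Tia1 the forms of 386, 377 and 285 residues took 36.9, 33.1 and 29.9% against 35.8, 34.0 and 30.2%. For Hnrnpa2b1 the forms of 341 and 301 residues took 46.5 and 53.5% in both. By limma 0 of these 9 ratios passed and 0 had an unadjusted p under 0.05, while over all 6968 transcripts of genes with several transcripts 0.0% passed and 6.59% had an unadjusted p under 0.05. The 336-residue form of Hnrnpd had the largest log2 change of ratio among the 9, -0.09 with a 95% interval of -0.20 to 0.031. In simulated data, where the FPKM of single transcripts was shifted directly, the same test recovered 94% of 2-fold shifts. How the authors divided fragments between transcripts that share exons is not given in the sources used here. Were shared fragments counted for each transcript or split evenly, these ratios could hardly move. The test therefore cannot decide whether splicing differed.

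**Figure D4:**
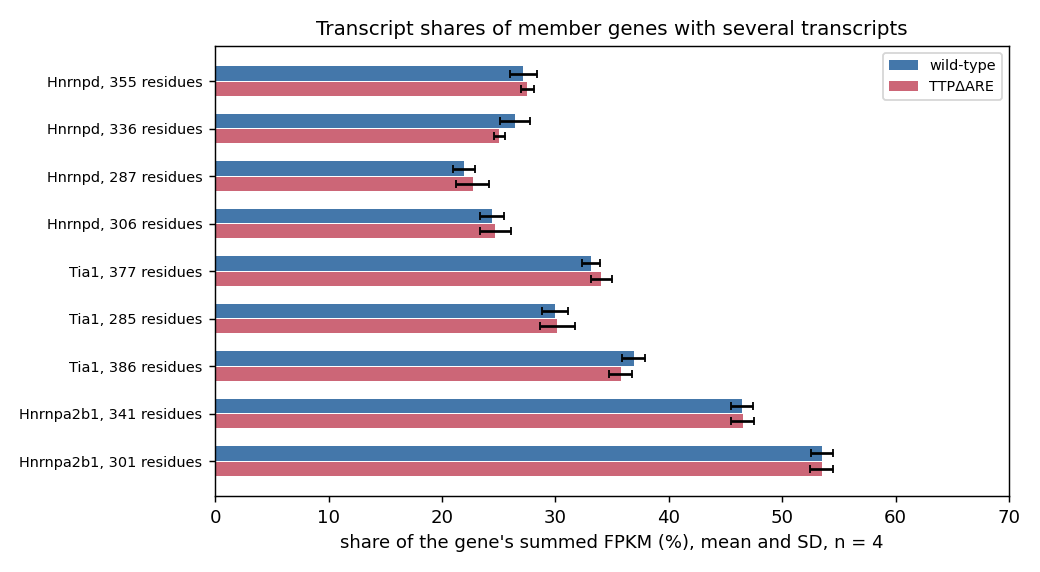
Share of each transcript in the summed FPKM of its gene, in percent, for Hnrnpd, Tia1 and Hnrnpa2b1; bars are means and lines SDs of 4 spleens of each genotype. Transcripts are labelled by the residues they encode; the largest difference is that of the 336-residue form of Hnrnpd, 26.5% in wild-type and 25.1% in TTPΔARE spleen.

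Among other RNA-binding proteins of these and related families a cold-inducible one fell. Of 32 listed hnRNP, KH-domain and related genes, all tested, 1 fell and 0 rose, and 5 had an unadjusted p under 0.05, with a median log2 change of -0.04. Over all transcripts 1.99% fell, 2.01% rose and 21.1% had an unadjusted p under 0.05. Cirbp, the cold-inducible RNA-binding protein, stood at 48.3, 33.6, 39.7 and 31.1 FPKM in wild-type and at 25.6, 29.5, 22.3 and 23.1 FPKM in TTPΔARE replicates 1 to 4. It fell by 0.58 on the log2 scale (SE 0.130, limma adjusted p = 0.0344), all TTPΔARE values being below the wild-type ones. Cirbp no longer passed when wild-type replicate 1 (adjusted p = 0.0522) or 3 (0.0608) was left out, without TTPΔARE replicate 1 (0.0634), 3 (0.114) or 4 (0.101), with no filter on low values (0.0535) and with the erythroid covariate (-0.37, adjusted p = 0.722). Rbm3, a related cold-inducible gene, stood at 54.8 ± 14.1 and 36.3 ± 4.68 FPKM (log2 -0.56, adjusted p = 0.0607; it passed without wild-type replicate 3, -0.64 and 0.0476), the stress granule gene Caprin1 at 7.86 ± 0.320 and 8.78 ± 0.299 FPKM (log2 0.15, adjusted p = 0.145) and Hnrnpk, the most abundant, at 160.4 ± 5.602 and 153.8 ± 1.41 FPKM (log2 -0.06).

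Relatives and regulators of Regnase and Roquin did not pass. By limma 0 of 14 tested of 15 listed passed and 3 had an unadjusted p under 0.05, with a median of -0.02. The shares over all transcripts were 4.0% and 21.1%. Bcl10 is an adaptor that activates the paracaspase Malt1, which cleaves Regnase-1 and the Roquins in T cells. Bcl10 stood at 15.7 ± 1.54 and 18.1 ± 0.170 FPKM (SD, n = 4 each; log2 0.21, limma adjusted p = 0.122), Malt1 at 28.8 ± 1.92 and 28.2 ± 2.10 FPKM (log2 -0.03), and Ikbkb, the kinase that marks Regnase-1 for degradation, at 18.2 ± 1.10 and 16.2 ± 0.517 FPKM (log2 -0.16, adjusted p = 0.141).

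Reported target mRNAs of these proteins did not pass in this spleen comparison. Of 17 Regnase-1 and Roquin targets 12 were tested; Il6, Il2, Ptgs2, Cxcl1 and Cxcl2 had means under 0.5 FPKM. By limma 0 of 12 passed and 6 had an unadjusted p under 0.05, 4 of them lower, and the median was -0.13, beside 0.0031 for all transcripts. Among all transcripts 4.0% passed, 21.1% had an unadjusted p under 0.05 and 9.47% had one with lower values. Nfkbiz, an inducible cofactor of NF-κB, stood at 2.71 ± 0.279 and 2.07 ± 0.210 FPKM (SD, n = 4 each; log2 -0.32, limma adjusted p = 0.0609) and passed under quantile normalization (-0.35, adjusted p = 0.0398). Il1b stood at 11.05 ± 1.97 and 8.19 ± 2.01 FPKM (log2 -0.42, adjusted p = 0.147), Nfkbid at 10.8 ± 0.507 and 9.44 ± 0.937 FPKM (log2 -0.19) and Rel, the most abundant, at 18.6 ± 3.10 and 16.6 ± 0.889 FPKM (log2 -0.15). The highest values on this list, named after they were seen, were those of Lcn2, a neutrophil granule gene (log2 0.996, SE 0.397), and of the transferrin receptor gene Tfrc (0.54, SE 0.228). Lcn2 passed without wild-type replicate 3 (1.48, adjusted p = 0.0107).

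Of 14 reported HuR targets, by limma 0 passed and 2 had an unadjusted p under 0.05, beside 4.0% and 21.1% of all transcripts. Their median was 0.09. Myc stood at 3.98 ± 0.290 and 4.93 ± 0.770 FPKM (SD, n = 4 each; log2 0.27, limma adjusted p = 0.139), the cyclin gene Ccnd1 at 17.8 ± 1.21 and 19.9 ± 1.04 FPKM (log2 0.16, adjusted p = 0.186) and Ptma, the most abundant, at 445.5 ± 36.4 and 398.1 ± 14.1 FPKM (log2 -0.16, adjusted p = 0.252).

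The p38 and MK2 kinase pathway phosphorylates TTP, HuR and KSRP, and 14-3-3 proteins bind phosphorylated TTP. Of 17 genes tested on this list 2 rose and 0 fell by limma. At an unadjusted p under 0.05 there were 8, of which 6 had higher and 2 had lower values. The median log2 change was 0.05, with 9 genes above 0 and 8 below. The 2 lower ones, named after they were seen, were the p38 genes Mapk11 and Mapk12. Mapk11 stood at 11.8 ± 0.561 and 10.1 ± 0.452 FPKM (log2 -0.21, limma adjusted p = 0.0681). Mapk12 stood at 2.74 ± 0.144 and 2.33 ± 0.243 FPKM (log2 -0.20, adjusted p = 0.173). For all transcripts 2.01% rose and 21.1% had an unadjusted p under 0.05. Mapk13, which encodes p38δ, was scarce, at 0.226, 0.272, 0.316 and 0.331 FPKM in wild-type and 0.885, 0.613, 0.943 and 0.861 FPKM in TTPΔARE replicates 1 to 4. It rose by log2 0.75 (SE 0.102, limma adjusted p = 0.00514), a size that depended on the pseudocount: 1.25 with 0.1 and 0.50 with 1 FPKM added. Mapk13 reached the mean of 0.5 FPKM only through the TTPΔARE spleens, passed with no filter as well (adjusted p = 0.0092), and was not tested where a mean of 1 FPKM was required. It passed with each of the 8 spleens left out. With the erythroid covariate, which is hard to separate from genotype, Mapk13 did not pass (0.54, adjusted p = 0.399). Ywhah, which encodes 14-3-3η, rose from 45.1 ± 1.82 to 54.4 ± 3.38 FPKM (log2 0.27, adjusted p = 0.0371). Ywhah no longer passed when wild-type replicate 1, 2 or 4 was left out (adjusted p = 0.0608, 0.0673 and 0.0983), without TTPΔARE replicate 1, 3 or 4 (0.0667, 0.131 and 0.111), without a variance trend (0.054) and with the erythroid covariate (0.15, adjusted p = 0.788). Map2k3, a kinase that activates p38, stood at 10.8 ± 0.920 and 13.4 ± 1.10 FPKM (log2 0.29, adjusted p = 0.0607) and passed without TTPΔARE replicate 2 (0.35, adjusted p = 0.0317). Ywhae, the most abundant, stood at 64.3 ± 2.53 and 68.4 ± 3.59 FPKM (log2 0.09).

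Across the 8 spleens, the genes whose pattern was most like that of Zc3h12a, by the root mean square difference of centred log2 levels among 6404 genes of at least 5 FPKM, were Itfg2 (0.0476), Ewsr1 (0.0488) and 2610301G19Rik (0.0576). Their log2 changes were -0.21, -0.24 and -0.22, and none passed (limma adjusted p = 0.165, 0.0542 and 0.0678). For Elavl1 they were Snx27 (0.0277), Pygb (0.0283) and Cebpz (0.0335), with log2 changes of 0.12, 0.11 and 0.12 that did not pass either (adjusted p = 0.257, 0.292 and 0.300). All were picked on the same 8 spleens, so log2 changes near those of Zc3h12a and Elavl1 follow from the choice.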

How the data were processed

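Total spleen RNA was sequenced, and the authors deposited FPKM per RefSeq transcript and sample. BWA and the build mm10 are named in the submitters' processing notes. What counted the fragments, with which annotation and strand setting, is not given in the sources used here. Each sample was 1 spleen, grouped by genotype label, with no litter or batch given. No count model was applied to FPKM. Depth was estimated as the one at which most values of at most 0.5 FPKM were whole fragments within 0.05 (38.1 to 41.5%, against 8.73 to 8.96% at other depths). Most were not whole, so fragments were not rebuilt.

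Those transcripts that averaged 0.5 FPKM or more were compared with limma 3.58.1 (R 4.3.3) as log2(FPKM + 0.5). Moderated variances followed a trend, tests were two-sided, and calls needed a Benjamini-Hochberg adjusted p under 0.05. Fold changes on that scale understate the change of low transcripts. Transcript ratios were tested the same way on log2((FPKM + 0.5)/(FPKM of the gene's other transcripts + 0.5)). In simulated data with 16608 transcripts the test recovered 54, 86, 96 and 98% of changes of 1.3, 1.5, 2 and 3-fold in FPKM + 0.5, 50 transcripts each, with 5 of 172 calls false. Each simulated transcript varied independently of the others, so shifts shared by many transcripts, such as the erythroid markers, were not covered. 3′ UTRs and lengths came from GENCODE M21, gene positions from RefSeq (GRCm38.p6); the authors' transcript lengths may differ.

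Members and lists were chosen with earlier results of these data known. Named were all members, Zfp36, the 3 genes of smallest p and the 1 of highest mean in each RNA-binding, regulator or target list, and the 3 nearest patterns of Zc3h12a and Elavl1. Added were Ccl25, Elavl3, the Igf2bp genes, the silent targets, Lcn2, Tfrc, Mapk11 and Mapk12. One gene that the rule names is not reported here. Plots and tables used Python 3.11.15, numpy 2.4.6, pandas 2.3.3 and matplotlib 3.10.9.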

Additional observations from a re-analysis of the deposited data

Results flagged for a closer look

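Of 36 groups of 4 spleens examined (16 transcripts and 2 class differences in each genotype), 2 held a value whose gap to the nearest other, divided by the range of the group, was over Dixon's 95% critical value. Chance gives about 1 in 20 groups. Hnrpdl stood at 51.28 FPKM in wild-type replicate 1 against 39.5 to 40.2 FPKM in the other wild-type spleens (a gap of 0.937 of the range). The 355-residue form of Hnrnpd stood at 3.431 FPKM in TTPΔARE replicate 3 against 3.20 to 3.23 FPKM in its group (0.873).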

How the results depend on the processing

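In 18 alternatives (pseudocounts, filters, median-of-ratios and quantile scaling, other variance models, FPKM summed per gene, an erythroid covariate and each spleen left out) 0 member transcripts and 0 of their ratios passed, with a lowest adjusted p of 0.0647 for a transcript; the ratios were compared in 15 of them, without the scalings and the summed FPKM. Of 279 log2 changes 260 kept their sign and 19 did not, all of transcripts near 0 or under the erythroid covariate. With that covariate Khsrp was at -0.0588, Tia1 at 0.0106 and 0.0696 for 377 and 285 residues, Rc3h2 at 0.0150 and Hnrnpa2b1 (301 residues) at 0.00146. With quantile normalization Hnrnpa2b1 was at 0.0225 and 0.0343. With 1 spleen left out in turn, values ran from -0.00961 to 0.104 for Khsrp, -0.0804 to 0.00178 for Hnrnpd (287 residues), -0.0206 to 0.114 for Rc3h1, -0.0544 to 0.0178 for Rc3h2, and for Hnrnpa2b1 from -0.0163 to 0.0142 (341 residues) and -0.0185 to 0.0119 (301 residues). The cause was not tested.

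The Elavl1 against destabilizer difference was 0.16 to 0.18 in the processing alternatives. The Roquin and Regnase difference ran from -0.069 without wild-type replicate 1 to 0.0011 without wild-type replicate 4. Of 91 genes tested on the 6 wider lists 3 passed, beside 4.0% of all transcripts. In the other processing alternatives 2 to 4 passed, 0 with the erythroid covariate, and 1 to 4 with 1 spleen left out (1 without TTPΔARE replicate 1, 3 or 4). The erythroid markers separate the genotypes, so power is lost with that covariate, and the 0 does not tell whether the changes depend on those markers. No paired analysis was possible because the labels give no replicate numbers shared between the genotypes. Depth limits the scarce transcripts: those of Tia1 and Hnrnpd for 285 and 287 residues rest on about 108 to 145 fragments a sample.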

Other observations

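Among the 10 member genes, wild-type replicate 1 held the highest or lowest value of its group for 7, with Elavl1, Khsrp, Rc3h1 and Zc3h12a at their lowest and Hnrnpd, Hnrpdl and Tia1 at their highest. It was also the extreme of its group for 59% of all 16608 tested transcripts, against 44.1 to 50.6% for the other wild-type spleens. TTPΔARE replicate 3 was the extreme for 7 of the 10 genes as well, and for 47.2% of all transcripts, against 45.9 to 56.9% for the others of its group.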
